A study of Mus musculus with 21 samples.

Results

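The angiopoietin and Tie pathway was examined through 5 of its genes: the secreted ligands Angpt1 and Angpt2, the receptors Tek (also called Tie2) and Tie1, and the receptor phosphatase Ptprb (VE-PTP). The members were chosen by gene symbol, each symbol occurs on 1 row, and the 5 rows were read from the 23827 rows of each of the 21 deposited expression tables. The tables come from mouse forebrain and kidney at embryonic day 14.5, in 7 groups of 3 samples. The forebrain was dissected with part of the diencephalon and is called brain here, and whole organ means the dissected tissue. All embryos carried 1 copy of Gt(ROSA)26Sor-mCherry-Rpl10a, an allele built from a single targeted stem cell clone in which Cre removes a stop cassette and the ubiquitous CAGGS promoter then drives a ribosomal protein tagged with mCherry. RNA bound to tagged ribosomes was pulled down and sequenced (translating ribosome affinity purification). The word translatome is used for that ribosome-bound RNA and the word transcriptome for total RNA of the same organ.

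Sox2Cre+/-;Gt(ROSA)26Sor-mCherry-Rpl10a+/- embryos, in which Cre acts in all cells of the embryo proper, gave the brain transcriptome, brain translatome, kidney transcriptome and kidney translatome. Cdh5CreERT2+/-;Gt(ROSA)26Sor-mCherry-Rpl10a+/- embryos, in which a tamoxifen-dependent Cre is driven from an endothelial promoter, gave the brain EC and kidney EC translatomes (EC, endothelial cell). The study's methods list tamoxifen in corn oil, given by oral gavage before harvest, without naming the cross. Cre driver, and tamoxifen if only this cross received it, cannot be told apart from cell type in comparisons with the Sox2Cre groups. Emx1Cre+/-;Gt(ROSA)26Sor-mCherry-Rpl10a+/- embryos gave the Emx1-lineage translatome of cells of the dorsal forebrain and their progeny. In the study's sample table every sample pooled brains or kidneys of more than 1 embryo, so an SD describes the spread between pools. The tag follows the Cre history of a cell, and an endothelial library can still hold RNA of its neighbours.

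Angpt1 is made mostly by cells that surround vessels and activates the Tek receptor on endothelial cells, a signal known for vessel stability. Angpt2 is an endothelial product that is stored and released, and it opposes or weakly mimics Angpt1 according to context. Tie1 binds neither ligand by itself and modulates Tek within receptor complexes. Ptprb removes phosphate from Tek, from the vascular endothelial growth factor receptor Kdr and from the junction protein Cdh5.

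In the GENCODE vM21 annotation of the GRCm38 build, all 5 members are protein-coding genes. Tek lies at chr4:94739289-94874976 on the plus strand and Tie1 at chr4:118471191-118490061 on the minus strand. Angpt1 lies at chr15:42424723-42676977 on the minus strand, and its exons share 737 bases with the antisense gene Gm17473. The library kit does not keep strand, so reads of Angpt1 and of Gm17473 cannot be told apart there. Angpt2 lies at chr8:18690263-18741562 on the minus strand, opposite to Mcph1, with 0 shared exon bases. Ptprb lies at chr10:116275523-116389535 on the plus strand.

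The sequence before the start of both receptor genes is shown because Tek and Tie1 were both highest in the endothelial groups and lowest in the Emx1-lineage. Between brain EC and kidney EC their levels moved apart, Tek being higher in the kidney libraries and Tie1 in the brain libraries, without overlap. Neither change passed the threshold given below in the main edgeR fit. The log2 fold change of brain EC against kidney EC was -0.31 for Tek (adjusted p = 6.3e-03) and 0.30 for Tie1 (adjusted p = 4.0e-03). RefSeq promoter sequences of build GRCm38.p6 were matched for 2 of the 5 members, and Angpt1, Angpt2 and Ptprb had no entry. The window was 250 bases upstream of the RefSeq start, written 5′ to 3′, and capitals mark GGAA or its reverse complement TTCC, the core letters bound by ETS factors. The Tek window is chr4:94739039-94739288 on the plus strand. Of the Tie1 window, 212 bases lie in an exon annotated by GENCODE, and only the 38 bases beyond it are printed, chr4:118490062-118490099 on the minus strand.
Tek: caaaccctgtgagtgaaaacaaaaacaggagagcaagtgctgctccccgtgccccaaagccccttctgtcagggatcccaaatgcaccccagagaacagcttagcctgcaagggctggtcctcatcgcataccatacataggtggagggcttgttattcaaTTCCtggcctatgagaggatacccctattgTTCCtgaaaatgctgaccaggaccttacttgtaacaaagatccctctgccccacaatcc
Tie1: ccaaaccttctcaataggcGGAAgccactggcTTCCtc
On either strand the Tek window held 2 matches to GGAA, each of them within the longer ETS motif CAGGAA, and 0 matches to the longer ETS motif CGGAA. It also held 1 match to the SOX factor motif AACAAT. The whole Tie1 window held 7 matches to GGAA, of which 2 are in the printed part, 1 match to CAGGAA and 1 match to CGGAA. Neither window held the motif AGATAA, which is bound by endothelial zinc finger factors, or the forkhead motif GTAAACA. Of 32851 promoters with the same window length, 93.4% held the short motif, with a median of 3 matches. The share was 25.7% for CAGGAA, 25.2% for CGGAA, 9.42% for the SOX motif, 9.99% for the zinc finger motif and 3.17% for the forkhead motif. These matches describe letters only.

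Total counts per library ranged from 21760652 to 79231692 reads, lowest in the kidney translatome (21760652 to 24605124) and highest in the Emx1-lineage (31682609 to 79231692). The labelled cell types were checked against fixed marker lists. The summed RPKM of 10 endothelial markers was 3655 to 3824 in brain EC, 2361 to 2823 in kidney EC, 198 to 222 in the brain translatome, 443 to 477 in the kidney translatome and 19.9 to 23.5 in the Emx1-lineage. Neural markers were not absent from brain EC, where 9 of them summed to 422 to 539 RPKM against 2162 to 2200 in the brain translatome, and 6 nephron markers summed to 72.1 to 73.3 RPKM in kidney EC against 280 to 305 in the kidney translatome. Brain EC, kidney EC and Emx1-lineage libraries each filled a sequencing lane of their own, so lane and group cannot be told apart in their comparisons.

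RPKM, the read count scaled by transcript length and sequencing depth as the authors give it, is a level per length and is used to compare genes. Tie1 was the most abundant member in each of the 3 libraries of both endothelial groups. In brain EC its RPKM was 320, 325 and 329, and in kidney EC 279, 279 and 256. The Tie1 level was 13.0 to 16.7 RPKM in the brain translatome, 9.06 to 11.8 in the brain transcriptome, 38.7 to 43.7 in the kidney translatome, 29.6 to 33.5 in the kidney transcriptome and 0.656 to 0.674 in the Emx1-lineage. No neighbouring groups overlapped in this order, which ran brain EC, kidney EC, kidney translatome, kidney transcriptome, brain translatome, brain transcriptome and Emx1-lineage.

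Tek, the receptor for both ligands, stood at 87.6, 83.1 and 95.3 RPKM in the brain EC libraries and at 120, 116 and 104 RPKM in the kidney EC libraries. Here the kidney libraries were the higher ones, without overlap. Tek was at 20.0 to 22.2 RPKM in the kidney translatome, 15.3 to 16.7 in the kidney transcriptome, 4.65 to 6.06 in the brain translatome, 3.86 to 4.64 in the brain transcriptome and 0.295 to 0.352 in the Emx1-lineage. Ptprb, the phosphatase, was lower than either receptor in every group, with 23.7, 23.8 and 25.3 RPKM in brain EC and 21.0, 20.6 and 22.4 in kidney EC. Its level was 4.10 to 4.82 RPKM in the kidney translatome, 3.19 to 3.56 in the kidney transcriptome and 0.162 to 0.238 in the Emx1-lineage. The brain transcriptome (1.66 to 1.84 RPKM) and brain translatome (1.46 to 1.98 RPKM) overlapped for Ptprb.

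The ligands were distributed differently. Angpt2 was highest in brain EC, with 15.8, 12.7 and 17.7 RPKM, and its kidney EC level of 3.80, 2.95 and 3.86 RPKM lay below that of whole kidney. In the kidney translatome Angpt2 was at 6.50, 7.94 and 7.03 RPKM, and in the kidney transcriptome at 4.89, 5.95 and 5.26 RPKM. RPKM is scaled by library totals without factors for library composition. With such factors, Angpt2 in kidney EC did not differ from the kidney transcriptome (edgeR, log2 fold change -0.17 ± 0.13 SE, adjusted p = 0.28). The brain translatome (1.88 to 2.39 RPKM), brain transcriptome (1.37 to 1.62 RPKM) and Emx1-lineage (0.448 to 0.503 RPKM) followed, and none of the 7 groups overlapped.

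Angpt1 was highest in whole kidney, at 10.7, 12.0 and 10.3 RPKM in the translatome and 8.66, 9.08 and 8.88 RPKM in the transcriptome. It was lowest in brain EC, at 1.36, 0.962 and 1.15 RPKM. Between these, the brain translatome (2.75 to 2.99 RPKM), brain transcriptome (2.38 to 2.97 RPKM), kidney EC (2.02 to 2.77 RPKM) and Emx1-lineage (2.09 to 2.54 RPKM) overlapped in a chain of neighbours. Read counts behind these values ran from 209 to 1796 for Angpt1, from 36 to 2511 for Angpt2 and from 52 to 25479 for Tek.

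**Figure D1:**
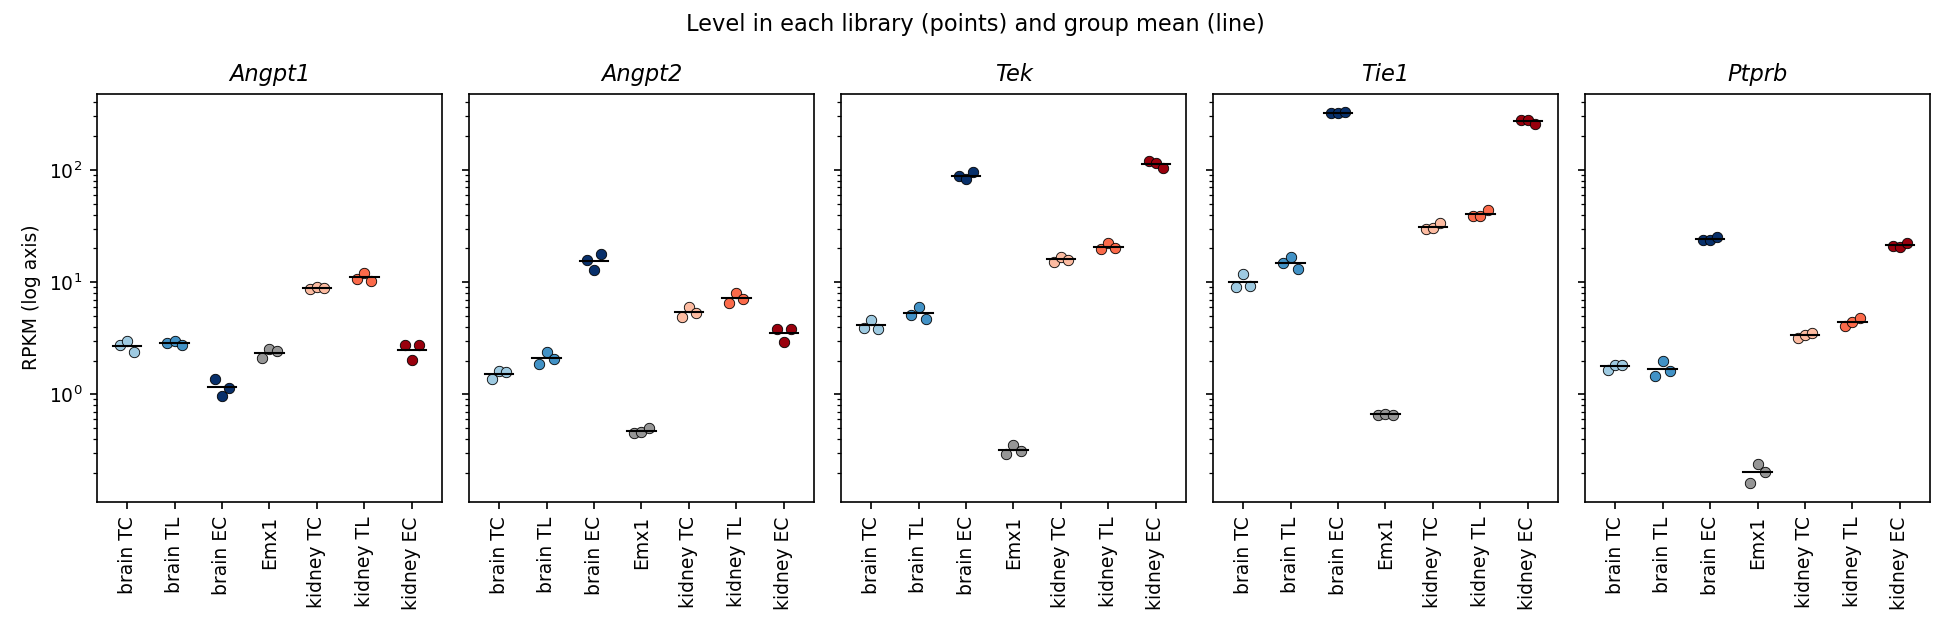
RPKM (log axis) of the 5 members in each of the 21 libraries (points) with group means (lines); TC is transcriptome, TL translatome, EC endothelial translatome and Emx1 the Emx1-lineage translatome. Tek, Tie1 and Ptprb peak in both endothelial groups, Angpt2 peaks in brain EC only (12.7 to 17.7 RPKM) and Angpt1 in whole kidney.

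The comparison of endothelial with whole-organ ribosome-bound RNA asks which members are enriched in the endothelium. In brain, both receptors, the phosphatase and Angpt2 were higher in endothelial cells and Angpt1 was lower. Tie1 was 26.7-fold higher (log2 fold change 4.74 ± 0.10 SE, adjusted p = 7.3e-13), Tek 20.6-fold (4.36 ± 0.11, adjusted p = 1.2e-12) and Ptprb 17.6-fold (4.14 ± 0.11, adjusted p = 1.8e-12). Angpt2 was 8.97-fold higher (3.17 ± 0.13, adjusted p = 2.1e-10). Angpt1 was 2.02-fold lower (-1.02 ± 0.13, adjusted p = 1.2e-05). At an adjusted p under 0.001, the threshold used throughout, 4 of 5 members were therefore higher, where 24.8% of all 19103 rows tested were, and 1 was lower, where 21.4% of all rows were. The median log2 fold change of the members was 4.14 beside -0.01 for all rows.

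In kidney, Tek, Tie1 and Ptprb were again higher in endothelial cells, and Angpt1 was lower. The rise was 8.59-fold for Tie1 (log2 fold change 3.10 ± 0.08, adjusted p = 4.4e-10), 7.00-fold for Tek (2.81 ± 0.07, adjusted p = 4.6e-10) and 6.17-fold for Ptprb (2.63 ± 0.08, adjusted p = 7.2e-10). Angpt1 was 3.42-fold lower (-1.78 ± 0.12, adjusted p = 4.5e-07). Angpt2 had a log2 fold change of -0.66 ± 0.13 and an adjusted p of 1.2e-03, just short of the threshold, and all 3 kidney EC libraries lay below all 3 kidney translatome libraries in RPKM. This made 3 of 5 members higher, where 16.7% of all rows were, and 1 lower, where 15% were. Angpt2 passed the threshold in 5 of 14 alternatives and stayed below 0 in all of them (log2 fold change -1.03 to -0.53). With library totals alone in place of composition factors, the median of all rows shifted by -0.37 in kidney and -0.30 in brain, and the share of called rows that were higher went from 52.7% to 21.7% in kidney and from 53.7% to 36.1% in brain.

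The 10 endothelial markers gave a scale for these changes. They were all higher in both organs, with log2 fold changes of 3.96 to 4.77 in brain and 2.48 to 3.18 in kidney. Tek, Tie1 and Ptprb fell inside these ranges in both organs, and Angpt2 and Angpt1 fell below them. Angpt1 in brain EC stood at 40.4% of its brain translatome RPKM, where the neural markers stood at 22.3% and 7 mural cell markers at 54.9%. Of the 7 mural markers 1 was higher and 5 were lower, where 24.8% and 21.4% of all rows were. Among them Cspg4 was at 9.35 to 11.2 RPKM in brain EC and 1.88 to 2.37 in the brain translatome. The 6 stroma markers, a list made for kidney, stood at 134% in brain EC, where they summed to 73.1 to 103 RPKM against 58.0 to 66.9 RPKM in the brain translatome. Of these 6, 5 were higher in brain EC, among them the matrix genes Dcn (log2 fold change 0.89) and Col1a1 (0.80), and Meis1 was lower (-1.42). The median log2 fold change of the 6 was 0.72, where that of Angpt2 was 3.17. In kidney EC, Angpt1 stood at 22.7% of its kidney translatome RPKM and Angpt2 at 49.4%, where the nephron markers stood at 24.5%, the stroma markers at 42.5% and the mural markers at 76.3%. These lists were not uniform. There 2 nephron markers were higher and 4 lower, 0 stroma markers higher and 4 lower, and 2 mural markers higher and 5 lower. Of all rows, 16.7% were higher and 15% lower. Cspg4 alone was at 67.9 to 77.2 RPKM of a mural sum of 118 to 127 RPKM in kidney EC. The part of neighbouring cells in the endothelial levels of both ligands was not tested.

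**Figure D2:**
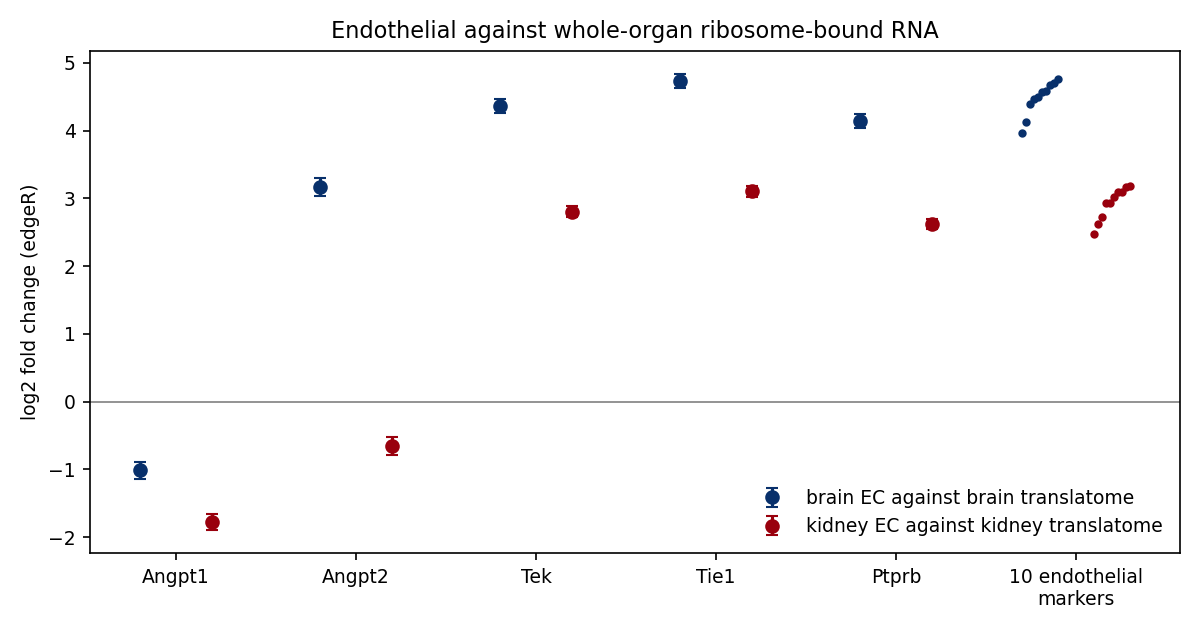
Log2 fold change (edgeR, error bars SE) of each member in endothelial against whole-organ ribosome-bound RNA in brain (blue) and kidney (red), 3 libraries against 3, with the 10 endothelial markers as single points at the right. Tek, Tie1 and Ptprb lie within the marker range of each organ, and Angpt2 stands at 3.17 in brain and -0.66 in kidney.

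Against total RNA in place of ribosome-bound RNA, the same members passed in brain and in kidney. In brain the log2 fold changes were 5.35 for Tie1, 4.76 for Tek, 4.11 for Ptprb, 3.67 for Angpt2 and -0.88 for Angpt1, with 4 members higher, where 26.8% of all rows were, and 1 lower, where 24.3% were. In kidney they were 3.55 for Tie1, 3.26 for Tek, 3.09 for Ptprb and -1.39 for Angpt1, with 3 higher, where 22.7% of all rows were, and 1 lower, where 18.4% were. Angpt2 in kidney had a log2 fold change of -0.17 ± 0.13 (adjusted p = 0.28). Both references share the endothelial libraries, so these values are not independent of the preceding ones.

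Whether the enrichment differed between the organs was tested as an interaction over 12 libraries. The enrichment was larger in brain for 4 of the 5 members, where 16.5% of all 19764 rows were called in that direction and 25.1% in either. The difference of log2 fold changes, brain minus kidney, was 1.58 ± 0.13 for Tek (adjusted p = 2.6e-08), 1.66 ± 0.12 for Tie1 (adjusted p = 9.2e-09) and 1.54 ± 0.13 for Ptprb (adjusted p = 4.8e-08). All 10 endothelial markers were called in the same direction, with differences of 1.41 to 1.90, and Tek, Tie1 and Ptprb lay within that range. The median over all rows was 0.155. Angpt2 differed by 3.85 ± 0.20 (adjusted p = 1.8e-10), above every one of the 10 markers. Angpt1 differed by 0.79 ± 0.19 and was not called (adjusted p = 2.6e-03).

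The 2 endothelial populations were also compared directly. Angpt2 was 4.47-fold higher in brain EC than in kidney EC (log2 fold change 2.16 ± 0.15, adjusted p = 3.4e-07), and Angpt1 was 2.11-fold lower (-1.08 ± 0.17, adjusted p = 2.5e-04). This was 1 member of 5 higher, where 20.1% of all rows were, and 1 lower, where 16.9% were. The call for Angpt1 was lost in 3 of 14 alternatives. These were the fit without kidney EC replicate 1 (log2 fold change -1.01, adjusted p = 1.0e-03) and limma on log2(RPKM + 1) and log2(RPKM + 0.1) (adjusted p = 2.1e-03 and 1.4e-03). Tek had a log2 fold change of -0.31 ± 0.08 (adjusted p = 6.3e-03), Tie1 of 0.30 ± 0.07 (adjusted p = 4.0e-03) and Ptprb of 0.23 ± 0.07 (adjusted p = 0.018). DESeq2 called Tek and Tie1 as well, at adjusted p = 8.4e-04 and 6.8e-06. Of the 10 endothelial markers 5 were higher and 1 was lower, with a median of 0.32.

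Members were set against the summed RPKM of the endothelial markers in each library to express a level per endothelial signal. Tek amounted to 2.17% to 2.61% of that sum in brain EC and 4.13% to 4.60% in kidney EC, and Tie1 to 8.45% to 8.99% and 9.90% to 10.8%. In whole organs the Tek share was 2.32% to 2.73% in the brain translatome and 4.24% to 4.72% in the kidney translatome, close to the share in the endothelial libraries of the same organ. Ptprb amounted to 0.621% to 0.693% in brain EC and 0.731% to 0.948% in kidney EC. For Tie1 and Ptprb the order of the organs rested on Cldn5, a tight junction gene that made up 31.4% to 35.6% of the sum in brain EC and 11.4% to 12.6% in kidney EC. Without Cldn5, an alternative added after the values were seen, Tie1 was higher in brain EC (12.8% to 13.1%) than in kidney EC (11.3% to 12.3%), and Ptprb overlapped (0.938% to 1.01% and 0.836% to 1.07%). Tek stayed lower in brain EC (3.28% to 3.80%) than in kidney EC (4.72% to 5.26%). Angpt2 amounted to 0.950% to 1.08% of the full sum in the brain translatome and 0.333% to 0.483% in brain EC. In kidney its share was 1.47% to 1.69% in the translatome and 0.105% to 0.164% in kidney EC. These shares are a description with no test.

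Organ-specific endothelial transcripts were sought with a rule that asks for at least 5 RPKM, a fold change of 4 or more against the other organ's endothelium and over 2 against both references of the organ, each past the threshold. The study filtered against 1 reference at a time, and the rule used here is stricter. Angpt2 was the only member that met it for brain, and 0 members met it for kidney. The outcome was the same with a fold change of 2 or more between organs, with at least 1 RPKM, or with either reference alone and fold changes only.

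Because RPKM is per length, the balance of the ligands and of the receptors could be read within each library. Angpt2 exceeded Angpt1 by a ratio of 11.7 to 15.4 in the 3 brain EC libraries (geometric mean 13.3) and of 1.39 to 1.46 in the 3 kidney EC libraries (geometric mean 1.41). Angpt1 was the higher of the pair in all other groups, the Angpt2 to Angpt1 ratio being 0.500 to 0.666 in the brain transcriptome, 0.661 to 0.801 in the brain translatome, 0.565 to 0.656 in the kidney transcriptome, 0.606 to 0.679 in the kidney translatome and 0.180 to 0.214 in the Emx1-lineage. The log2 ratio was higher by 3.24 ± 0.12 (SE) in brain EC than in kidney EC, with no overlap (two-sided exact permutation test, p = 0.1, the smallest that 3 against 3 can give). Between whole organs it differed by -0.09 ± 0.14 in total RNA (exact permutation p = 0.5) and by 0.18 ± 0.10 in ribosome-bound RNA (exact permutation p = 0.2).

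Tie1 exceeded Tek in all 21 libraries. The Tie1 to Tek ratio was 3.45 to 3.91 in brain EC and 2.33 to 2.45 in kidney EC, a log2 difference of 0.62 ± 0.06 (exact permutation p = 0.1). It was 2.76 to 2.90 in the brain translatome and 1.75 to 2.17 in the kidney translatome (log2 difference 0.54 ± 0.09, exact permutation p = 0.1), and 2.32 to 2.55 and 1.82 to 2.11 in the transcriptomes (log2 difference 0.31 ± 0.07, exact permutation p = 0.1). The brain ratio was the higher one in each of the 3 comparisons, without overlap of libraries. The 6 ratio comparisons cannot pass 0.05 with 3 libraries a group, whether adjusted or not.

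**Figure D3:**
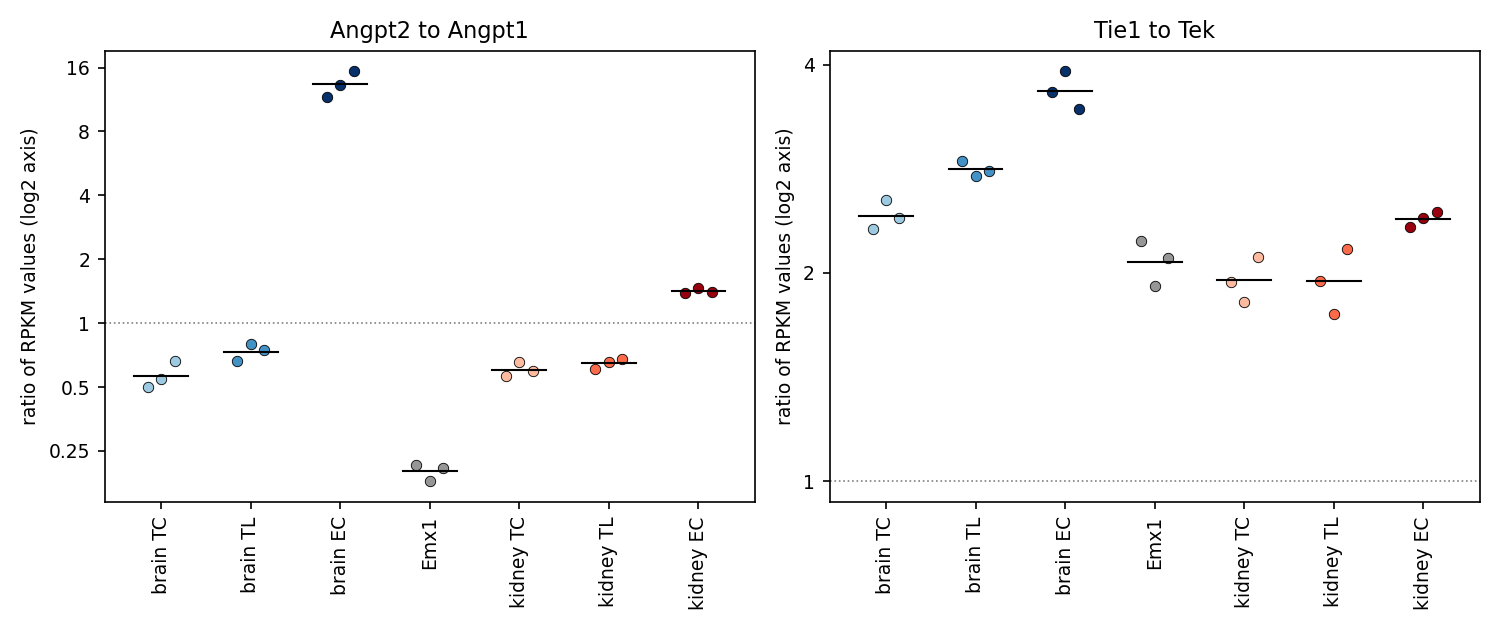
Ratio of RPKM values (log2 axis) of Angpt2 to Angpt1 (left) and of Tie1 to Tek (right) in each library (points) with the geometric mean of each group (lines); the dotted line marks equal levels. Angpt2 exceeds Angpt1 only in the endothelial groups, 13.3-fold in brain EC and 1.41-fold in kidney EC on geometric mean, and Tie1 exceeds Tek in all libraries.

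The Emx1-lineage, a neural lineage of the dorsal forebrain, served as a population that should lack endothelial ribosomes. Tie1 was 21.6-fold lower there than in the brain translatome (log2 fold change -4.43 ± 0.10, adjusted p = 1.7e-13), Tek 16.1-fold lower (-4.01 ± 0.12, adjusted p = 2.6e-12), Ptprb 8.29-fold lower (-3.05 ± 0.14, adjusted p = 2.5e-10) and Angpt2 4.30-fold lower (-2.10 ± 0.15, adjusted p = 2.4e-08). The 10 endothelial markers were all lower, with a median of -3.60. Angpt1 was not called, at -0.24 ± 0.09 (adjusted p = 0.046), and its 2.09, 2.54 and 2.43 RPKM were 82.2% of the brain translatome mean. Thus 4 of 5 members were lower, where 12.8% of all rows were, and 0 were higher, where 9.2% were. The 7 mural markers were lower as well, and their summed RPKM stood at 13.2% of the brain translatome, below the 22.3% of Angpt2.

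Whole organs differed in all members. Brain was lower than kidney for each of the 5, by log2 fold changes of -1.78 for Tek, -1.74 for Angpt1, -1.56 for Angpt2, -1.24 for Tie1 and -1.19 for Ptprb in ribosome-bound RNA, with adjusted p from 3.1e-10 to 1.8e-07. In total RNA the values were -1.76 for Tek, -1.62 for Angpt2, -1.53 for Angpt1, -1.44 for Tie1 and -0.74 for Ptprb, with adjusted p from 4.5e-09 to 3.2e-06. Of all rows, 26.2% were lower and 27.2% higher in brain in ribosome-bound RNA, and 26.3% and 27.2% in total RNA. The endothelial markers had a median of -1.16 in ribosome-bound RNA, with 8 of 10 lower. In such bulk samples, fewer endothelial cells and less RNA of a gene per cell cannot be told apart.

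Ribosome-bound and total RNA of the same tissue samples were compared next, to see whether members are over- or under-represented on ribosomes. In brain Tie1 was 1.51-fold higher in the translatome (log2 fold change 0.59 ± 0.10, adjusted p = 1.8e-04). This was 1 of 5 members, where 18.6% of all rows were higher, and 0 members were lower, where 18.5% of all rows were. Angpt2 (0.49 ± 0.13, adjusted p = 5.9e-03), Tek (0.38 ± 0.10, adjusted p = 5.3e-03), Angpt1 (0.11 ± 0.10, adjusted p = 0.35) and Ptprb (-0.05 ± 0.10, adjusted p = 0.71) were not called. With the tissue sample as a block, since libraries of the same number came from the same tissue, Angpt2 (adjusted p = 1.2e-04) and Tek (adjusted p = 1.8e-05) were called too, which made 3 of 5, where 23.1% of all rows were higher and 22.8% lower in that fit. In fits that did not use the block, the Tie1 call was lost without brain transcriptome replicate 1, brain translatome replicate 1 or brain translatome replicate 2 (adjusted p = 1.1e-03, 2.7e-03 and 1.1e-03). No replicate was left out of the blocked fit.

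In kidney Tek (log2 fold change 0.38 ± 0.05, adjusted p = 9.8e-05), Tie1 (0.38 ± 0.06, adjusted p = 3.7e-04) and Ptprb (0.39 ± 0.07, adjusted p = 8.0e-04) were higher in the translatome, 3 of 5 members where 14.9% of all rows were, and 0 were lower, where 15.8% were. Angpt1 (0.32 ± 0.07, adjusted p = 2.1e-03) and Angpt2 (0.42 ± 0.11, adjusted p = 7.1e-03) were not called. With the tissue sample as a block all 5 were higher (adjusted p = 1.2e-09 for Angpt1 and 7.8e-09 for Angpt2), where 24% of all rows were higher and 25.1% lower in that fit. In that blocked fit every row took the fitted trend as its dispersion. Replicates were left out only of fits that did not use the block. There only Tek remained called without kidney transcriptome replicate 1, without kidney transcriptome replicate 2 or without kidney translatome replicate 3 (Tie1 adjusted p = 1.7e-03, 1.2e-03 and 1.2e-03). Ptprb was also lost without kidney transcriptome replicate 3 (adjusted p = 1.3e-03) and without kidney translatome replicate 2 (adjusted p = 2.9e-03). The difference between the organs in this change was called for 0 of 5 members, where 6.47% of all rows were called in edgeR. The smallest adjusted p was that of Ptprb, with a difference of -0.46 ± 0.13 (adjusted p = 0.019), which was called with the block (-0.46, adjusted p = 6.3e-05), where 17.1% of all rows were called. Ptprb was also the only member with an unadjusted p under 0.05 (3.3e-03). DESeq2 likewise called 0 of 5.

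**Figure D4:**
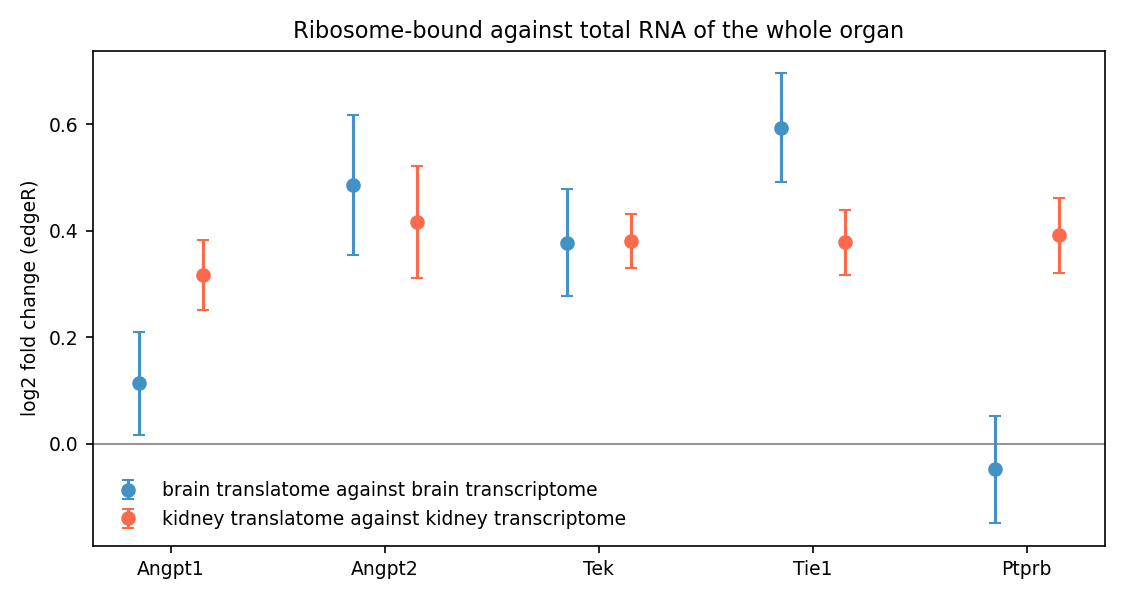
Log2 fold change (edgeR, error bars SE) of each member in ribosome-bound against total RNA of forebrain (blue) and kidney (red). Each fit set 3 libraries against 3, without the tissue sample as a block. All 5 members lie between 0.32 and 0.42 in kidney, and the brain values run from -0.05 for Ptprb to 0.59 for Tie1.

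The 44 other genes, taken from 7 pathway lists, were less uniform than the receptors. These lists also hold relatives of members, namely 6 angiopoietin-like genes and 4 receptor phosphatases related to Ptprb. In brain EC against the brain translatome 24 were higher (54.5%) and 8 lower (18.2%), where 24.8% and 21.4% of all rows were. In kidney EC against the kidney translatome 16 were higher (36.4%) and 11 lower (25.0%), where 16.7% and 15% of all rows were. The counts of single lists that follow are from the same comparisons and have the same background. Ptprb substrates Kdr (log2 fold change 4.57 in brain and 3.10 in kidney) and Cdh5 (4.77 and 3.16), which are also on the marker list, were higher in both organs. Of 6 extracellular partners and receptor sheddases all were higher in brain EC, led by the integrin subunit Itga5 (3.87) and Svep1 (2.70), a matrix protein that binds Tie1. In kidney EC 3 of these 6 were higher, led by Itga5 (1.88), and the integrin subunit Itgav was lower (-0.49).

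Of 18 adaptors and kinases downstream of Tek, 8 were higher and 4 lower in brain EC, and 5 were higher and 6 lower in kidney EC. The nitric oxide synthase Nos3 was higher in both (4.84 and 3.22), and the phosphoinositide 3-kinase subunit Pik3r2 was lower in both (-1.82 and -1.61). Grb7, an adaptor that binds phosphorylated Tek, had the largest change of the list in brain (5.20 ± 0.37) and was lower in kidney EC (-1.98), from levels of 0.037 to 0.108 RPKM in the brain translatome and 18.2 to 20.4 RPKM in the kidney translatome. Among 7 transcription factors of the pathway, Klf2 (4.86 and 3.02) and Ets1 (4.40 and 2.17) were higher in both organs, and Foxo1, the factor that Akt signalling restrains and that drives Angpt2, was higher in both as well (2.94 and 1.43). For Prox1, a lymphatic regulator also used in the neural lineage, the change was -0.88 in brain and called, and 1.23 in kidney with an adjusted p of 1.6e-03.

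Of the 44 genes, 7 were called in opposite directions in the 2 organs, where 2.83% of the 18279 rows tested in both comparisons were. These genes were picked out by that pattern, so their values are a description. Higher in brain EC and lower in kidney EC were Angptl4 (2.79 and -1.01), Angptl2 (1.56 and -0.69), Foxc2 (2.29 and -1.03), Grb7, Grb14 (1.40 and -1.32) and Itgav (0.94 and -0.49), and the reverse was seen for Ptpro (-1.81 and 1.04). The difference between organs was 3.83 for Angptl4, a secreted lipase inhibitor of the angiopoietin-like family, beside the 3.85 of Angpt2. Angptl4 stood at 28.8 to 35.0 RPKM in brain EC, 4.86 to 5.85 in the brain translatome, 3.61 to 3.67 in kidney EC and 8.39 to 10.1 in the kidney translatome.

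**Figure D5:**
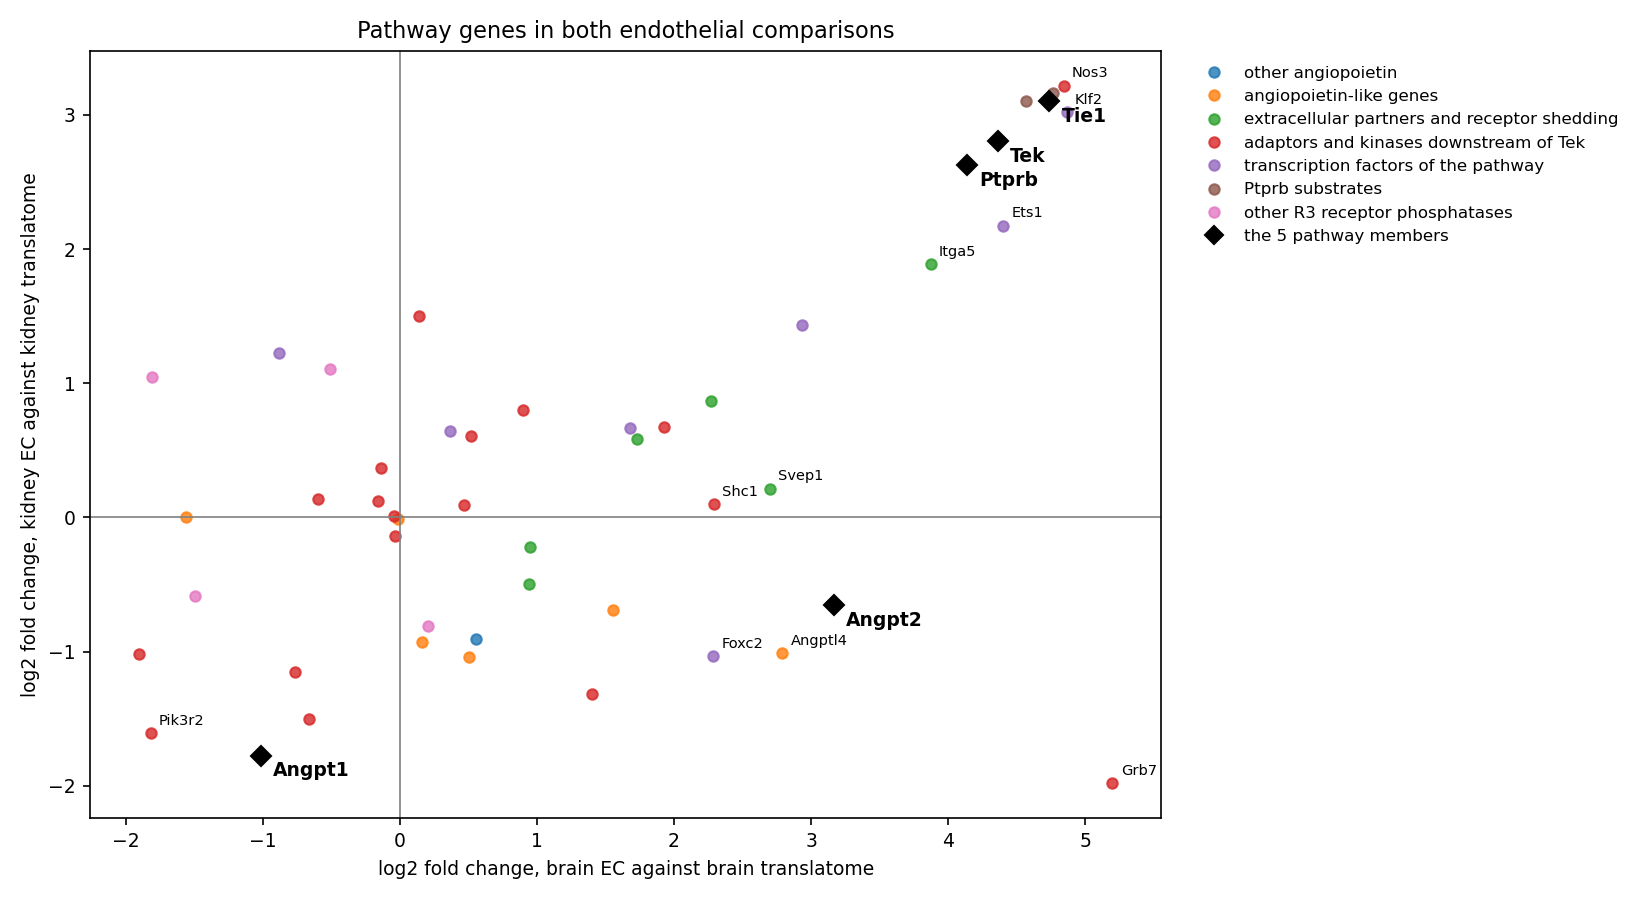
Log2 fold change in brain EC against brain translatome (horizontal) and kidney EC against kidney translatome (vertical). Diamonds are the 5 members and circles the 44 other listed genes, coloured by list. Tek, Tie1 and Ptprb lie at the upper right with Nos3 and Klf2, Angpt1 at the lower left, and Angpt2 in the lower right part with Angptl4 and Foxc2.

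Between the endothelial groups 12 of the 44 genes were higher in brain EC (27.3%) and 6 lower (13.6%), where 20.1% and 16.9% of all rows were. The larger changes were those of Ptprh, a phosphatase related to Ptprb (3.95 ± 0.71), Angptl4 (3.14) and Grb14 (2.64). Foxc2 (-1.35), Itgav (-1.32) and Svep1 (-1.28) were lower. Ptprh was at 0.124 to 0.317 RPKM in brain EC and at most 0.03 in kidney EC. Its level was higher in the brain translatome (0.599 to 0.757 RPKM) and the Emx1-lineage (0.53 to 0.572 RPKM) than in brain EC. In the Emx1-lineage 5 of the 44 were higher (11.4%) and 14 lower (31.8%), where 9.2% and 12.8% of all rows were, and those lower were led by Cdh5 (-4.47), Klf2 (-4.22) and Nos3 (-3.25). Angpt4, the remaining angiopoietin, did not exceed 0.398 RPKM in any library and was lower in brain than in kidney in ribosome-bound RNA (-3.14). Between ribosome-bound and total RNA, 10 of the 44 were higher (22.7%) and 2 lower (4.5%) in brain, where 18.6% and 18.5% of all rows were. In kidney 5 were higher (11.4%) and 2 lower (4.5%), where 14.9% and 15.8% of all rows were, so the shares of higher genes were near the background in both organs. Akt1 (0.52 in brain and 0.58 in kidney) and Akt2 (0.41 and 0.35) were higher in both.

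The genes most like each member were found by Pearson's r of log2(RPKM + 1) over the 21 libraries, among all rows of at least 1 RPKM in some group, and are given as a description. Libraries of a group share tissue and depth, so r mostly reflects the 7 groups. Tek was closest to Icam2 (r = 0.998), Arhgap29, Aplnr, Arap3 and Ctsh. Tie1 was closest to Cdh5 (r = 0.998), Pecam1, Cd34, Aplnr and Cd93. Ptprb was closest to Pcdh12 (r = 0.997), Eogt, Flt1, Sox17 and Thsd1. Among themselves these members reached r = 0.992 for Tek with Tie1, 0.982 for Tie1 with Ptprb and 0.980 for Tek with Ptprb.

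Angpt2 was closest to Tln2 (r = 0.983), Adipor1, Rhobtb1, Tmem51 and Hspb1, and reached r = 0.810 with Tek and 0.823 with Tie1. Angpt1 was closest to Emb (r = 0.985), Cited1 (r = 0.984), Cpm, Twsg1 and Axl. Cited1 marks nephron progenitors and was on the nephron marker list. The r of Angpt1 with the other members ran from -0.23 for Ptprb to 0.14 for Angpt2.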

How the data were processed

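The members and all gene lists were chosen with earlier results of these data known. The deposited tables hold, per gene and sample, a raw read count and an RPKM. The authors mapped TruSeq RNA reads to GRCm38/mm10 with RUM and computed counts and RPKM with rpkmforgenes on UCSC refGene models; the kit keeps no strand. Total counts were 21760652 to 79231692 per sample, and the precision is given as SD of 3 samples or as SE.

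Tests on counts used the quasi-likelihood functions of edgeR 4.0.16 (R 4.3.3) with TMM factors, over all rows with at least 1 read, in 10 comparisons of 6 samples and 2 interaction fits of 12 samples. P-values were adjusted by Benjamini-Hochberg over all rows and called under 0.001. SE was derived from the log2 fold change and its F statistic, as size over root F. RPKM ratios were tested by exact permutation with scipy 1.17.1. Of repeated symbols, the row with most reads was used.

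Alternatives were DESeq2 1.42.0, relative log expression factors, library totals alone, a block for the replicate number, a minimum of 10 reads in 3 samples, 1 fit of all 21 samples, limma 3.58.1 on log2(RPKM + 1) and log2(RPKM + 0.1), each replicate left out, and libraries that shared a lane. The single-reference organ rule and the marker sum without Cldn5 were added after seeing the data. In the study's sample table, transcriptome and translatome libraries of the same number came from the same tissue sample. Their deviations from the group means correlated at r = 0.386 to 0.617 in brain and 0.552 to 0.622 in kidney. For different numbers r was -0.401 to -0.153 and -0.348 to -0.249. Centring each group on its own mean makes r for different numbers negative when equal numbers correlate, so these ranges are not independent. Named genes were the members, for each pathway list the called genes with the largest changes, the genes called in opposite directions in the organs, and the 5 genes most like each member.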

Additional observations from a re-analysis of the deposited data

Results flagged for a closer look

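The endothelial enrichment differed between brain and kidney, by the interaction term of the edgeR fit, for 4 members. It was larger in brain for each of them, where 16.5% of all 19764 rows were called in that direction and 25.1% in either. The difference of log2 fold changes, brain minus kidney, was 3.85 for Angpt2, 1.58 for Tek, 1.66 for Tie1 and 1.54 for Ptprb. The 10 endothelial markers ranged from 1.41 to 1.90, and the median over all rows was 0.155. No cause was tested.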

How the results depend on the processing

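Of 880 recomputed log2 fold changes of members, 829 kept their direction and side of the threshold, 16 passed it newly, 25 lost it and 10 changed sign. The values of Tek, Tie1 and Ptprb in the 4 endothelial against whole-organ comparisons, and those of all members between whole organs, kept both in every alternative. In brain EC against kidney EC, DESeq2 called 4 members, both ligands with Tek and Tie1. The fit of all 21 samples also called 4, both ligands with Tie1 and Ptprb. DESeq2 called 4423 rows higher and 4013 lower, and the fit of all 21 samples 5721 and 3632. The main fit called 3876 and 3251. Limma called 1 member with either pseudocount, and fits with a replicate left out called 1 to 2. In the Emx1-lineage, limma called 2021 rows with a pseudocount of 1 and 2286 with 0.1, against 4191. In brain translatome against transcriptome, 3 members were called with the replicate block, 0 by limma with either pseudocount and 0 to 1 with a replicate left out, and Ptprb (-0.05) ranged from -0.17 to 0.0172 with a replicate left out and was 0.0336 among libraries sharing a lane. In kidney, the replicate block called 5 members and 9496 rows, limma 0 members, libraries sharing a lane 1 member and 3736 rows, and fits with a replicate left out 1 to 3 members. For the difference of that change between organs, DESeq2 called 2586 rows, the replicate block 1 member and 3445 rows, and fits with a replicate left out 850 to 1248 rows, against 1301. With a replicate left out, this difference ranged from -0.0418 to 0.13 for Angpt2 and from -0.12 to 0.0587 for Tek, changing sign in 4 fits each and never called. The whole-organ difference of the log2 Angpt2 to Angpt1 ratio in total RNA ranged from -0.21 to 0.0006. The brain EC and kidney EC libraries of the same number also deviated together (r = 0.173 to 0.347), and the replicate block changed no call of a member there or in any comparison other than those named. Under library totals alone, the share of called rows that were higher was 35.4% in brain EC and 24.7% in kidney EC against the transcriptomes (52.4% and 55.3% with TMM) and 29.9% in the Emx1-lineage (41.7%, and 18.2% to 19.9% by limma). For the endothelial interaction it was 55.6% by DESeq2 and 65.7% in edgeR. The causes were not tested. The lowest counts, 36 to 88 reads of Angpt2 in the Emx1-lineage, limit the precision there, and 3 libraries a group limit it everywhere.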
